A study of Mus musculus with 8 samples.

Results

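Heat-shock proteins and their J-domain partners form the protein-folding machinery of the cell. They were described here in the livers of mice with diet-induced steatohepatitis that had received human circulating vesicles. Members were chosen by gene symbol: every row of the liver FPKM table named as an Hspa, Hspb, Hspd, Hspe, Hsph, Hsp90a, Dnaja, Dnajb or Dnajc gene, apart from the 4 endoplasmic reticulum genes Hspa5, Dnajb9, Dnajb11 and Dnajc3. This gave 79 members among 52030 named genes. No measured value picked a row, but the family was selected from earlier results of the same 8 libraries, in which heat-shock genes lay higher in 1 group. The group differences of the members are therefore a description and support nothing. The unit, FPKM, gives fragments per kilobase of transcript, scaled by the mapped fragments of the library, so that levels per length can be compared between genes as far as the unstated gene lengths allow.

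All mice were wild type and were kept on CDAHFD, a high-fat diet with defined amino acids and no choline, which produces nonalcoholic steatohepatitis (NASH), in which fat deposits, inflammation and scarring meet. The RIC_hEV group (4 libraries) had received extracellular vesicles (EVs) by vein from the blood of human volunteers after remote limb ischemic conditioning (RIC), in which blood flow to a limb is interrupted for short periods. The ctr_hEV group (4 libraries) had received vesicles from sham-treated volunteers. Both groups thus carried the diet, the human vesicles and the injection, and no library came from a mouse on normal diet or without vesicles. The labels give no sex, age, dose, injection schedule or animal number, so whether each library is a separate mouse is unknown here, and p-values measure only the spread between these 8 libraries.

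As background, Hsp70 proteins bind unfolded stretches of a protein and release them in cycles driven by ATP. J-domain (DnaJ or Hsp40) proteins bring the client and start ATP hydrolysis, while Hsp110 and Bag proteins are nucleotide exchange factors that end the cycle. Hsp90 takes over clients such as steroid receptors and kinases, small heat-shock proteins hold unfolded proteins in solution, and the Hsp60-Hsp10 chaperonin folds proteins inside mitochondria. Some genes run at a steady level in every cell. Others are switched on by heat shock factor 1, Hsf1, when unfolded proteins accumulate. Hepatocytes, the main cells of the liver, make most plasma proteins.

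The switch acts on heat-shock elements, repeats of a 3-base unit (GAA or, on the other strand, TTC) set 2 bases apart in alternating direction. The 250 bases upstream of each annotated start were searched for a pair of units, GAANNTTC or TTCNNGAA, each motif being its own reverse complement, so that both strands were covered. RefSeq promoter entries (build GRCm38.p6) were matched for 53 of the 79 members and 26 had no entry. Hspa8, Hsp90ab1, Hsp90aa1 and Hspa9 were among the 26, so their promoters were not searched. The 2 constitutive Hsp70 and Hsp110 members with an entry were Hspa4 and Hspa14. A pair was present in 6 of 9 inducible members with an entry, 0 of 2 constitutive Hsp70 and Hsp110 members, 2 of 5 mitochondrial members, 1 of 13 cytosolic and nuclear J proteins and 1 of 6 endoplasmic reticulum members; the other 4 matches were in unclassed and tissue-restricted members. Over all members it was present in 14 of 53 genes, or 26.42%, against 14.55% of 27025 genes with an entry. An exact match is a description of the letters and not a binding site, and an absent match says only that these letters are not in this window. The promoter of Hspa1b, the main stress-inducible Hsp70, is shown first because the gene carried the largest relative difference between groups. Its 250 bases lie on the minus strand at chr17:34959239-34959488, and capitals mark the unit pair.
Hspa1b: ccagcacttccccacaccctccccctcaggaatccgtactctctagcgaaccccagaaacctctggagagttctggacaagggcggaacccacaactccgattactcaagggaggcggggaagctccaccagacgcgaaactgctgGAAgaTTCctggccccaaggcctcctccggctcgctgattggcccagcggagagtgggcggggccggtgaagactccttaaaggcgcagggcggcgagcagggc

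The promoter of its neighbour Hspa1a was identical at 247 of 250 bases and holds the same pair at chr17:34972248-34972265, minus strand. The short windows below give 5 bases on each side of the units in capitals. In the inducible promoters printed, the units form single or separate pairs, and in Hspd1 and Hspe1 they form 1 alternating run. The other mitochondrial members with an entry held no pair. Hspb1 holds 2 separate pairs (chr5:135887797-135887834, plus strand), Hsph1 1 pair (chr5:149636357-149636374, minus strand) and Dnaja1 1 pair at 1 of its 3 annotated starts (chr4:40722339-40722356, plus strand). Hspd1 and Hspe1 stand head to head on chromosome 1 and share 1 run of alternating units, read on the plus strand for Hspe1 and on the minus strand for Hspd1 (chr1:55088054-55088081). The run lies upstream of only 1 annotated start of Hspd1, and the window of its other start held no pair.
Hspb1: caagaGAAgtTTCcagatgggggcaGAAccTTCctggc
Hsph1: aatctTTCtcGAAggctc
Dnaja1: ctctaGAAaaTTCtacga
Hspe1: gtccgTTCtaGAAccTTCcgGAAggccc
Hspd1: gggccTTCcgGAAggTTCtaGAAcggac
Runs of at least 3 units were found in 3 of 53 members with an entry, namely Hspd1, Hspe1 and the J protein Dnajb6, and in 0.514% of all genes with an entry. Dnajb4 held a pair at 1 of its 2 starts. The windows of Hspb8, Dnajb1 and Hspa4l held no exact pair.

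**Figure D1:**
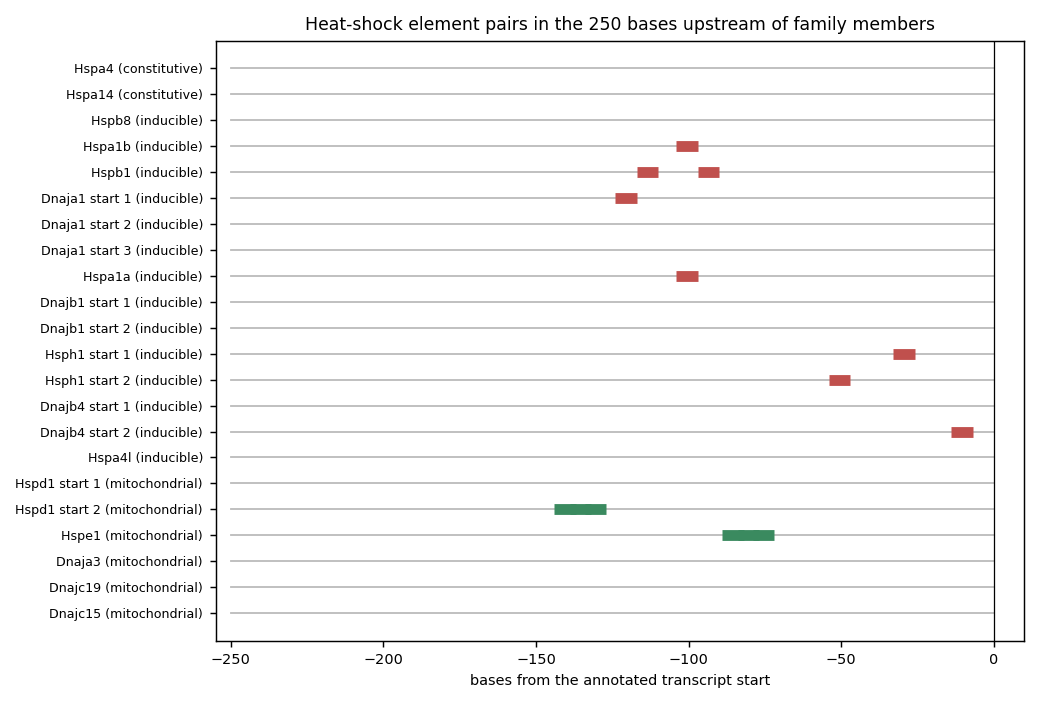
Position of exact heat-shock element pairs (bars) in the 250 bases before each annotated transcript start, in bases from that start, for inducible (red), mitochondrial (green) and constitutive members with a RefSeq entry. Hspa1b and Hspa1a hold a pair at the same distance, Hspb1 holds 2, and the shared run of Hspd1 and Hspe1 is the longest block.

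Not every member was expressed in liver. Of the 79 members, 54 reached a mean of 1 FPKM over the 8 libraries and were tested together with all other such genes, 11268 in number. The remaining 25 lay below it, and 6 of them were listed at 0 in every library: the pseudogenes Hspd1-ps1, Hspd1-ps2 and Hspe1-ps4, and Dnajb8, Dnajc5g and Hspb3. Of 15 tissue-restricted members, most of them known from testis, muscle or nervous tissue, 3 were tested, and of 12 pseudogene rows 2 were. No member lay close below the limit; just inside it were Hspb11 at 1.20 FPKM and Hspa1l at 1.07 FPKM.

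Estimated depth was 19400000 to 28700000 fragments per library, at which 1 FPKM of a transcript of 2 kb rests on 38.8 to 57.4 fragments. Hepatocyte transcripts dominated, as the liver label implies: albumin averaged 22810 ± 2431 FPKM in RIC_hEV and 22984 ± 4608 FPKM in ctr_hEV (SD, n = 4 each). Of 8 striated muscle markers, Myh1, Myh4 and Tnnt3 were listed at 0 in every library and 1 reached the limit for testing. Control libraries ctr_hEV 1 and ctr_hEV 3 stood apart in cell-type markers: 8 stellate cell and fibroblast markers summed to 104 to 141 FPKM in RIC_hEV, against 270 and 206 FPKM in ctr_hEV 1 and 3 and 121 and 112 FPKM in ctr_hEV 2 and 4. Most class and list values, and those of members that move much without these 2 libraries, are given with and without them. The median tested gene was 0.11 log2 units lower in RIC_hEV, so log2 changes below are relative to that median unless called fitted. A log2 change is on the log2(FPKM + 1) scale and understates the change of low genes; SE and p belong to the fitted change. In bulk tissue, fewer cells of a type and less RNA per cell cannot be told apart.

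Over all genes, 4 of 11268 passed an adjusted p of 0.05 (0.0355%; limma, Benjamini-Hochberg), and none was a member; the lowest adjusted p of a member was 0.331. At an unadjusted p under 0.05, 7 members were higher, against 2.64% of all tested genes, and 7 were lower, against 11.4%. With the library medians set equal the split was 13 higher and 2 lower, beside 8.20% and 3.88% of all tested genes, and with quantile normalization 8 higher and 2 lower, beside 5.37% and 5.39%. All 4 RIC_hEV values lay above all 4 ctr_hEV values in 2 members (Hspa1b and Hspb8), against 1.31% of all tested genes, and below them in 3 members (Dnajc12, Hspa13 and Dnajc1), against 4.56%. These shares are printed for reading the counts; the contrast led to the choice of the family and nothing is read from them.

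Over all 8 libraries, inducible chaperones had the largest median difference of the classes. All 10 were tested and all 10 lay above the median gene, with relative log2 changes from 0.21 to 1.28 and a median of 0.48, beside 0 for all tested genes by construction; the count was the same on the TPM scale and with quantile normalization. The inducible median was 0.28 without ctr_hEV 1, 0.61 without ctr_hEV 4 and 0.16 without ctr_hEV 1 and 3, when 8 of 10 remained above the median gene. In that last setting the median of the 3 tested tissue-restricted members was higher, at 0.22. The 10 inducible genes summed to 443, 451, 571 and 475 FPKM in RIC_hEV 1 to 4. In ctr_hEV 1 to 4 they summed to 222, 366, 275 and 403 FPKM. Every RIC_hEV sum thus exceeded every ctr_hEV sum, and the ctr_hEV libraries were spread more widely. In the mean log2(FPKM + 1) of these genes, minus that of all tested genes, the groups overlapped. On that measure RIC_hEV 1, at 1.76, lay below ctr_hEV 4, at 1.83. ctr_hEV 1 was the lowest control in 10 of 10 inducible genes and the lowest of all 8 libraries in 8, while RIC_hEV 3 was the highest of all 8 in 6.

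Hspa1b was at 89.7, 115, 159 and 107 FPKM in RIC_hEV 1 to 4, against 29.2, 74.6, 36.0 and 83.0 FPKM in ctr_hEV 1 to 4. The groups did not overlap, with RIC_hEV 1 just above ctr_hEV 4, and ctr_hEV 1 and 3 were far below the other controls. The means were 118 ± 29.7 FPKM in RIC_hEV and 55.7 ± 27.0 FPKM in ctr_hEV, a relative log2 change of 1.28 (fitted 1.17, SE 0.32, limma adjusted p = 0.331). Without ctr_hEV 1 and 3 the relative change was 0.57. Hspa1a, which encodes a nearly identical Hsp70 from the neighbouring gene, was at 21.5, 35.3, 43.4 and 29.3 FPKM in RIC_hEV, against 9.90, 23.8, 10.7 and 22.1 FPKM in ctr_hEV. RIC_hEV 1 lay below ctr_hEV 2 and 4, and the other RIC_hEV libraries lay above every control. Its relative log2 change was 1.09, and 0.46 without ctr_hEV 1 and 3. Of the 31-base stretches of Hspa1b, 67.7% also occur in Hspa1a, so reads of both could be split and the genes are not independent observations; the ratio of Hspa1b to Hspa1a stayed between 2.95 and 4.17 in all 8 libraries.

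Hsph1, the inducible Hsp110 that frees Hsp70 of its nucleotide, was at 21.1, 17.8, 26.5 and 25.3 FPKM in RIC_hEV, against 6.57, 16.2, 11.6 and 20.7 FPKM in ctr_hEV. Only ctr_hEV 4 reached into the RIC_hEV range. The relative log2 change was 0.88 (limma adjusted p = 0.354), and 0.30 without ctr_hEV 1 and 3. Hspa4l, a relative of Hsp110, was low in both groups, at 2.86 ± 0.550 FPKM in RIC_hEV and 2.26 ± 0.645 FPKM in ctr_hEV, and the groups overlapped. Its relative log2 change of 0.37 became 0.11 without ctr_hEV 1 and 3.

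Among small heat-shock proteins, Hspb1, which binds unfolded proteins and actin, was at 98.8, 68.3, 104 and 87.1 FPKM in RIC_hEV, against 29.0, 40.1, 34.7 and 77.9 FPKM in ctr_hEV. Controls 1 to 3 were all below the lowest RIC_hEV library and ctr_hEV 4 lay inside the RIC_hEV range. The relative log2 change was 1.16 (fitted 1.05, SE 0.27, limma adjusted p = 0.331), and 0.68 without ctr_hEV 1 and 3. Without ctr_hEV 4 it was 1.49 with a limma adjusted p of 0.0127, in a fit in which 175 genes passed in all. Of its 31-base stretches, 52.3% also occur in the pseudogene Hsp25-ps1, so its level is uncertain. Hspb8, the small heat-shock protein that works with Bag3 in selective autophagy, was at 141, 134, 131 and 123 FPKM in RIC_hEV, against 96.4, 120, 115 and 116 FPKM in ctr_hEV. Its groups did not overlap, at a relative log2 change of 0.35 (limma adjusted p = 0.354), or 0.19 without ctr_hEV 1 and 3. Its libraries varied least of the inducible genes, with a coefficient of variation of 5.75% in RIC_hEV and 9.42% in ctr_hEV.

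Hsp90aa1, the inducible Hsp90, was at 21.4, 19.2, 31.1 and 39.1 FPKM in RIC_hEV, against 15.4, 29.5, 17.9 and 20.9 FPKM in ctr_hEV. The groups overlapped widely, with RIC_hEV 3 and 4 and ctr_hEV 2 at the top. The relative log2 change of 0.48 was 0.12 without ctr_hEV 1 and 3. Dnaja1, a J partner of cytosolic Hsp70, was at 30.3, 30.9, 42.6 and 37.5 FPKM in RIC_hEV, against 17.0, 33.9, 26.3 and 33.6 FPKM in ctr_hEV. The groups overlapped through ctr_hEV 2 and 4, and the change relative to the median gene, 0.48 on the log2 scale, was 0.08 without ctr_hEV 1 and 3.

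Dnajb1, a J protein known to be induced by Hsf1 together with Hsp70, differed least of the inducible genes. It was at 15.1, 22.2, 23.9 and 20.1 FPKM in RIC_hEV, against 15.1, 22.4, 18.3 and 19.2 FPKM in ctr_hEV. The relative log2 change was 0.21 and turned to -0.02 without ctr_hEV 1 and 3. The ratio of Hspa1b to Dnajb1 within a library was 5.96, 5.18, 6.69 and 5.34 in RIC_hEV, against 1.93, 3.33, 1.97 and 4.32 in ctr_hEV. No control reached the lowest RIC_hEV ratio. Dnajb4, another inducible J protein, was at 1.73, 5.84, 5.90 and 2.44 FPKM in RIC_hEV, against 1.78, 3.13, 2.37 and 5.98 FPKM in ctr_hEV, more than 3-fold apart within each group, and its relative log2 change of 0.29 turned to -0.20 without ctr_hEV 1 and 3.

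**Figure D2:**
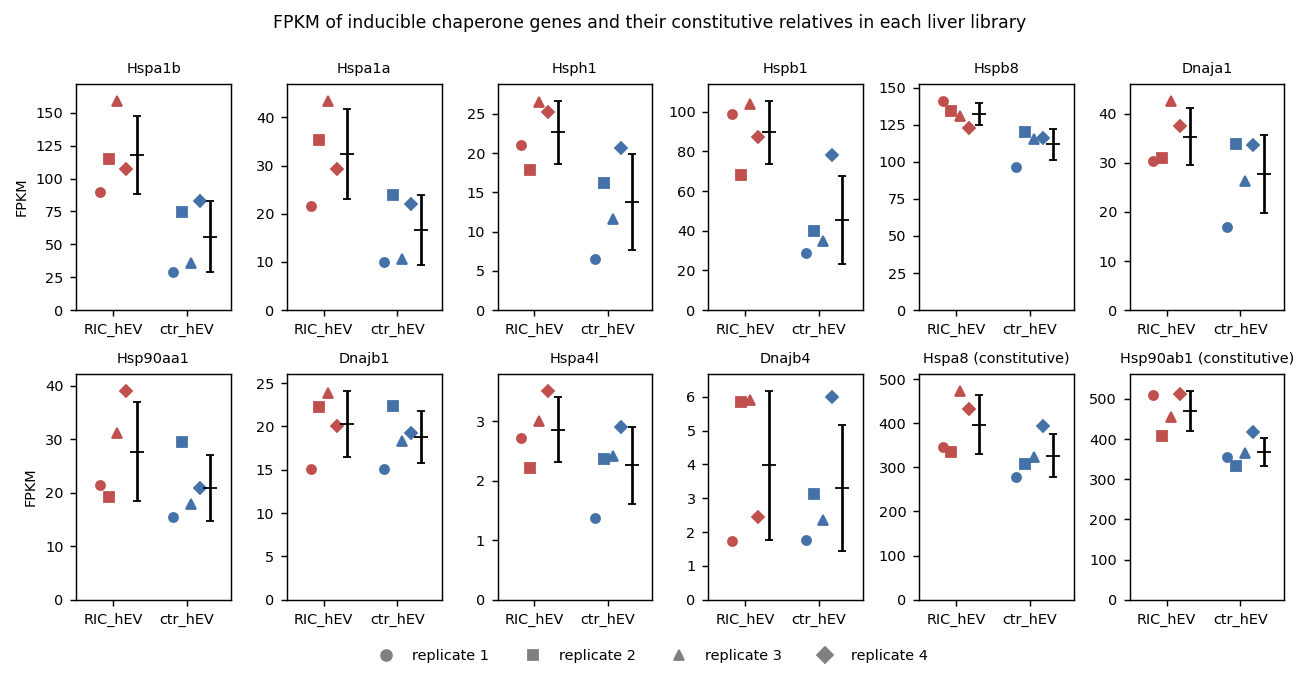
FPKM (linear axis from 0) of the 10 inducible chaperone genes and 2 constitutive relatives in each library, with RIC_hEV in red and ctr_hEV in blue; marker shapes are replicate numbers and bars are mean and SD over 4 libraries. Hspa1b and Hspb8 show no overlap between groups, and ctr_hEV 1 (blue circle) is the lowest control in every inducible gene.

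The constitutive members split. Hspa8, the housekeeping Hsp70, was at 347, 334, 474 and 432 FPKM in RIC_hEV, against 279, 307, 324 and 394 FPKM in ctr_hEV. Only ctr_hEV 4 lay inside the RIC_hEV range, and the relative log2 change was 0.39 (limma adjusted p = 0.395), or 0.20 without ctr_hEV 1 and 3. Hsp90ab1, the housekeeping Hsp90, was at 510, 407, 456 and 511 FPKM in RIC_hEV, against 355, 333, 366 and 417 FPKM in ctr_hEV. RIC_hEV 2 lay below ctr_hEV 4 and all other pairs were separated; the relative log2 change was 0.46 (fitted 0.35, SE 0.12, limma adjusted p = 0.345) and 0.36 without ctr_hEV 1 and 3. The other constitutive members lay near the median gene. Hspa4, the steady Hsp110, was at 26.3 ± 2.65 FPKM in RIC_hEV and 29.8 ± 3.38 FPKM in ctr_hEV (relative log2 change -0.06), and Hspa14, an Hsp70 of the ribosome, at 2.80 ± 0.427 FPKM in RIC_hEV and 3.34 ± 0.622 FPKM in ctr_hEV (-0.07). The class median was 0.16 over the 4 genes, and 0.08 without ctr_hEV 1 and 3.

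Ratios within a library set inducible genes directly against their steady relatives, whatever the scaling of the library. Hspa1b stood to Hspa8 as 0.259, 0.345, 0.337 and 0.248 in RIC_hEV, against 0.105, 0.243, 0.111 and 0.211 in ctr_hEV. The groups did not overlap, but ctr_hEV 2 lay next to RIC_hEV 4 and the low values were those of ctr_hEV 1 and 3. Hsph1 stood to Hspa4 as 0.716 to 0.930 in RIC_hEV and as 0.221 to 0.823 in ctr_hEV. In the Hsp90 pair the ratio of Hsp90aa1 to Hsp90ab1 was 0.058 ± 0.017 in RIC_hEV and 0.058 ± 0.021 in ctr_hEV. The group means of the ratio thus lay apart in the Hsp70 and Hsp110 pairs and together in the Hsp90 pair; whether the pairs differ from each other was not tested.

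Mitochondrial members differed mainly in the chaperonin. Hspe1, the Hsp10 lid, was at 103, 123, 139 and 107 FPKM in RIC_hEV, against 71.0, 84.8, 81.8 and 103 FPKM in ctr_hEV. The ctr_hEV 4 value met the lowest RIC_hEV value, and the relative log2 change was 0.58 (fitted 0.47, SE 0.14, limma adjusted p = 0.331), or 0.35 without ctr_hEV 1 and 3. Hspd1, the Hsp60 barrel, was at 183, 184, 210 and 202 FPKM in RIC_hEV, against 140, 177, 156 and 193 FPKM in ctr_hEV. Its groups overlapped through ctr_hEV 4, and its relative log2 change was 0.34, or 0.10 without ctr_hEV 1 and 3. Of its 31-base stretches, 46.5% also occur in Hspd1-ps3, a pseudogene at 13.4 ± 1.101 FPKM in RIC_hEV and 11.6 ± 1.64 FPKM in ctr_hEV. Of the stretches of Hspe1, 30.5% also occur in other genes.

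The other mitochondrial members had relative log2 changes from 0.01 to 0.25. Hspa9, the mitochondrial Hsp70, was at 115, 125, 126 and 135 FPKM in RIC_hEV, against 141, 128, 137 and 117 FPKM in ctr_hEV, with a relative log2 change of 0.05 whose sign turned with quantile normalization. Its J partner Dnaja3 averaged 19.0 ± 2.99 FPKM in RIC_hEV and 18.4 ± 3.49 FPKM in ctr_hEV, and its relative log2 change of 0.16 turned to -0.15 without ctr_hEV 1 and 3. Dnajc19, of the import motor, had a relative log2 change of 0.25 and its relative Dnajc15 of 0.15; without ctr_hEV 1 and 3 these were 0.11 and 0.013. Dnajc11, a partner of the inner-membrane organizing complex, had 0.02 and Dnajc30 0.01. In the full set 8 of 8 members lay above the median gene and 5 were higher as fitted. The count above the median gene was 7 with quantile normalization (Hspa9 excepted), 6 without RIC_hEV 1, 6 without ctr_hEV 1 and 3 (Dnaja3 and Dnajc30 excepted) and 5 of 8 with no filter on low values. The class median of 0.15 was 0.05 without ctr_hEV 1 and 3. The 13 mitochondrially encoded transcripts also lay above the median gene, 13 of 13 (9 with quantile normalization and 8 without ctr_hEV 1 and 3), and summed to 68553 to 74725 FPKM in RIC_hEV and 55045 to 72723 FPKM in ctr_hEV. Their part in the chaperonin values was not tested.

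**Figure D3:**
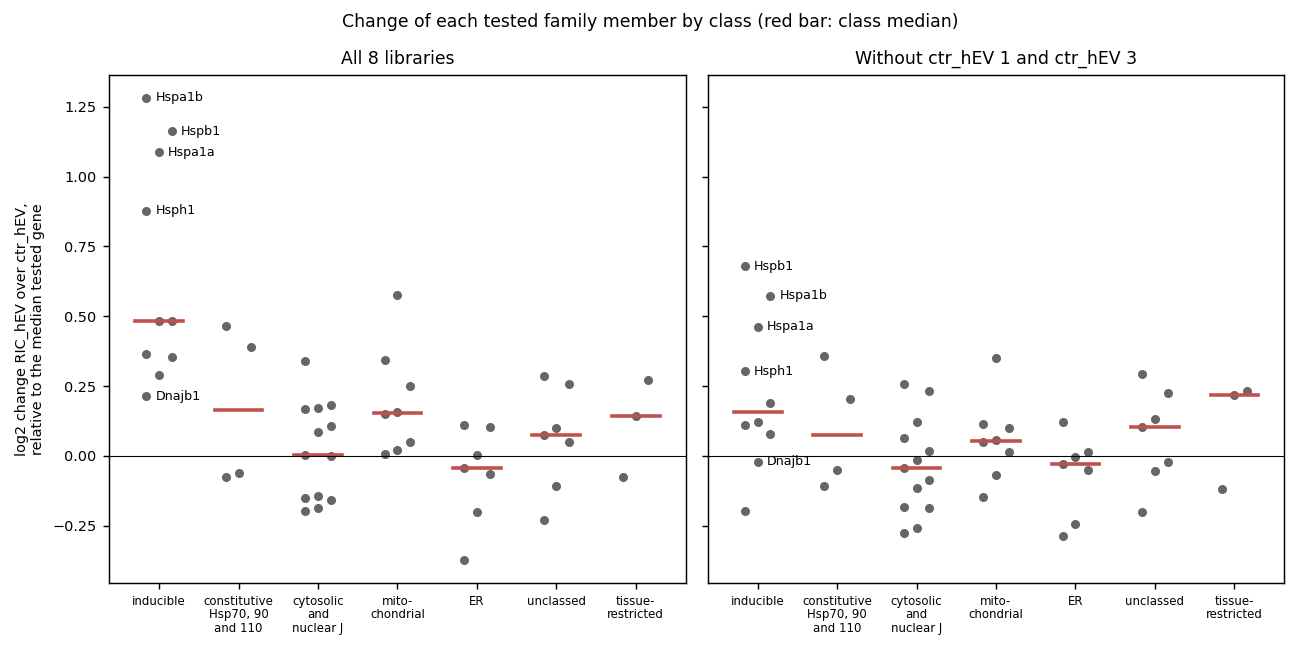
Relative log2 change (RIC_hEV over ctr_hEV, log2(FPKM + 1) scale, minus the median tested gene) of the tested members that are not pseudogenes, by class, over all 8 libraries (left) and without ctr_hEV 1 and ctr_hEV 3 (right); points are genes and red bars class medians. The inducible median is 0.48 on the left and 0.16 on the right, and that of the other cytosolic and nuclear J proteins 0.0024 on the left and -0.04 on the right.

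The other J proteins of cytosol and nucleus were balanced. Of 13 tested, 7 lay above and 6 below the median gene, with a median of 0.0024 and a range from -0.20 to 0.34. Without ctr_hEV 1 and 3 the median was -0.04, with 5 above and 8 below. The largest value was that of Dnajb2, at 8.13 ± 1.95 FPKM in RIC_hEV and 6.71 ± 0.799 FPKM in ctr_hEV, and the lowest that of Dnajc8, at 8.88 ± 2.13 FPKM in RIC_hEV and 11.03 ± 0.669 FPKM in ctr_hEV; these and the genes in the next sentence were named with their values known. Unadjusted p lay under 0.05, all lower, for Dnajc5, the cysteine string protein of secretory vesicles, Dnajc13 of endosomes, Dnajc17 and Dnajc2, the J protein of the ribosome. These p-values belong to the fitted change, 11.4% of all tested genes were lower at that threshold, and with median centring or quantile normalization 2 of all members were. Dnaja2, the most abundant of the class and likewise named with its values known, was at 46.0 ± 4.38 FPKM in RIC_hEV and 49.6 ± 3.48 FPKM in ctr_hEV (relative log2 change 0.0024), beside 0.48 for its inducible relative Dnaja1.

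J proteins and Hsp70 relatives of the endoplasmic reticulum were split: 3 of 7 lay above and 4 below the median gene, with a median of -0.045 (0.070 at a minimum mean of 5 FPKM, and 2 above and 5 below without ctr_hEV 1 and 3). Their summed level was 38.8, 36.6, 38.5 and 38.6 FPKM in RIC_hEV, against 49.2, 42.2, 45.2 and 39.4 FPKM in ctr_hEV, without overlap. Hspa13, a microsomal Hsp70 relative, was at 3.05, 3.05, 3.69 and 2.92 FPKM in RIC_hEV, against 4.30, 3.87, 4.30 and 4.21 FPKM in ctr_hEV (relative log2 change -0.20, limma adjusted p = 0.331). Dnajc1, a J protein of the membrane, was at 2.28, 2.28, 2.19 and 2.29 FPKM in RIC_hEV, against 2.88, 2.47, 2.77 and 2.41 FPKM in ctr_hEV, a relative log2 change of -0.04. In both genes the groups did not overlap. Dnajc10, a J protein that reduces disulfide bonds and was named after its values were seen, had the lowest relative log2 change of all members, -0.37, at 8.25 ± 1.02 FPKM in RIC_hEV and 12.02 ± 2.13 FPKM in ctr_hEV. It passed without ctr_hEV 4 (limma adjusted p = 0.0433), in a fit in which 175 genes passed in all, and not in the full set (0.331). Of 14 endoplasmic reticulum chaperones outside the family, among them Hspa5, 7 lay above and 7 below the median gene, with a median of 0.0027; with quantile normalization it was 3 above and 11 below, and without ctr_hEV 1 and 3 it was 2 above and 12 below (median -0.13).

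Among members of no class, Dnajc12, a J protein that in humans is needed for the aromatic amino acid hydroxylases, was at 1.05, 1.01, 1.22 and 1.22 FPKM in RIC_hEV, against 1.97, 1.55, 1.83 and 1.43 FPKM in ctr_hEV. The groups did not overlap, the relative log2 change was -0.23 (limma adjusted p = 0.331) and it was -0.20 without ctr_hEV 1 and 3. Of 7 such members tested, 5 lay above and 2 below the median gene. Of 3 tested tissue-restricted members, 2 lay above it (median 0.14, and 0.22 without ctr_hEV 1 and 3). Hspa1l, which stands next to Hspa1a and was named with its values known, was at 1.183 ± 0.172 FPKM in RIC_hEV and 0.961 ± 0.266 FPKM in ctr_hEV. Over all 54 tested members, 38 lay above and 16 below the median gene with a median of 0.11, and 27 were higher as fitted.

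Levels within the family spanned more than 2 orders of magnitude and had a similar order in both groups. Hsp90ab1 was highest, at 471 ± 49.5 FPKM in RIC_hEV and 368 ± 35.8 FPKM in ctr_hEV, and Hspa8 followed at 397 ± 67.4 FPKM in RIC_hEV and 326 ± 49.0 FPKM in ctr_hEV; the ranges of these 2 genes overlapped in each group. Hspd1 came next, clearly below them in both groups. In RIC_hEV the next genes, Hspb8, Hspa9, Hspa1b, Hspe1 and Hspb1, each overlapped their neighbour in the order, and a gap separated Hspb1 from Dnajc22 at 50.3 ± 2.99 FPKM, a gene named only for its place in this order. In ctr_hEV no such gap existed, since Hspa1b at 55.7 ± 27.0 FPKM and Hspb1 at 45.4 ± 22.1 FPKM overlapped Dnaja2 and Dnajc22 (45.3 ± 2.30 FPKM). Together the 79 members took 0.451% to 0.538% of all FPKM in RIC_hEV and 0.396% to 0.456% in ctr_hEV.

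**Figure D4:**
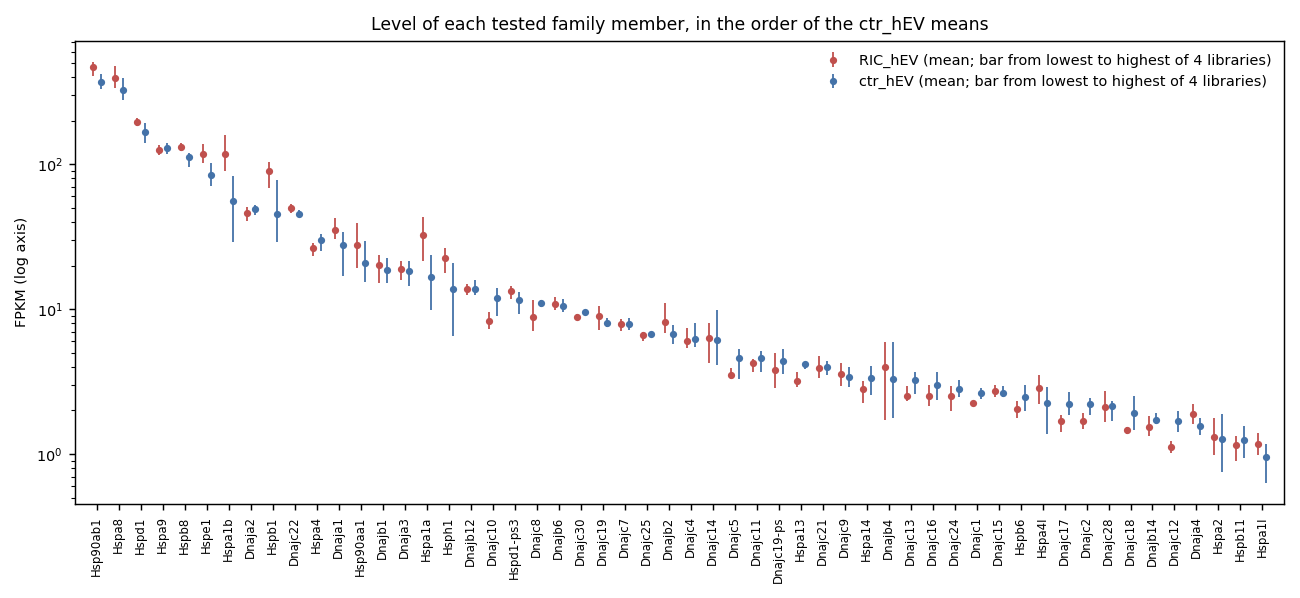
Mean FPKM (log axis) of the 54 tested members in the order of their ctr_hEV means, with RIC_hEV in red to the left of ctr_hEV in blue; bars run from the lowest to the highest of 4 libraries. Hsp90ab1 and Hspa8 lead in both groups, and Hspa1b, Hspb1, Hspa1a and Hsph1 show the widest ctr_hEV bars among the abundant members.

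The spread between libraries was itself uneven across the family. The median coefficient of variation of inducible genes was 19.0% in RIC_hEV and 36.8% in ctr_hEV, beside 13.2% in RIC_hEV and 16.3% in ctr_hEV over all tested genes. For constitutive Hsp70, Hsp110 and Hsp90 genes it was 12.9% in RIC_hEV and 13.2% in ctr_hEV, for mitochondrial members 9.07% in RIC_hEV and 11.4% in ctr_hEV, and for the other cytosolic and nuclear J proteins 11.7% in RIC_hEV and 11.9% in ctr_hEV. The inducible genes were thus the variable class, above all among controls.

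Heat shock factors and cochaperones outside the family were taken from a list of 22 genes, of which 21 were tested. Hsf1 was low, at 1.16, 1.31, 1.38 and 1.47 FPKM in RIC_hEV, against 1.69, 1.10, 1.54 and 1.17 FPKM in ctr_hEV, with overlapping groups and a relative log2 change of 0.09; ctr_hEV 1 and 3, the controls with the least Hspa1b, had the most Hsf1 transcript. Of the list, 18 lay above and 3 below the median gene, with a median of 0.14, and none passed (lowest limma adjusted p of 0.341). The count above was 17 with quantile normalization and 17 without ctr_hEV 1 and 3 (median 0.15). At an unadjusted p under 0.05, 5 were higher, against 2.64% of all tested genes, and 1 was lower, against 11.4%. The 5, named with their values known, were Stip1, which hands clients from Hsp70 to Hsp90, Ahsa1, which speeds the Hsp90 ATPase, the immunophilins Fkbp4 and Fkbp5, and Bag4. Stip1 averaged 51.0 ± 8.02 FPKM in RIC_hEV and 36.6 ± 6.02 FPKM in ctr_hEV, the largest relative log2 change of the list (0.58). Bag5, an exchange factor of Hsp70, was the lower gene, at 5.78, 5.69, 5.93 and 5.96 FPKM in RIC_hEV, against 7.87, 7.94, 7.30 and 6.17 FPKM in ctr_hEV, without overlap (relative log2 change -0.17). Bag3, the partner of Hspb8 and an Hsf1 target, also named with its values known, was at 22.0 ± 1.94 FPKM in RIC_hEV and 19.8 ± 4.06 FPKM in ctr_hEV. Other folding machines were closer to the median gene. The 8 subunits of the cytosolic chaperonin TRiC had 5 above and 3 below it (median 0.014), turned to 3 above and 5 below both with quantile normalization and without ctr_hEV 1 and 3. Of 10 genes of mitochondrial protein import and quality control, 9 lay above it (median 0.11), 8 with quantile normalization and 6 without ctr_hEV 1 and 3 (median 0.028).

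Several other gene lists also lay mostly to 1 side of the median gene, and their association with the inducible genes was not tested. The cold-inducible RNA-binding proteins Cirbp and Rbm3, known to rise in the cold, both lay below the median gene (2 of 2, median -0.38, and -0.17 without ctr_hEV 1 and 3). Cirbp, named with its values known, was at 3.08, 3.39, 2.66 and 2.88 FPKM in RIC_hEV, against 8.96, 3.94, 6.10 and 3.50 FPKM in ctr_hEV, without overlap. It was highest in ctr_hEV 1 and 3, where Hspa1b was lowest. The sum of both genes ran from 18.5 to 24.0 FPKM in RIC_hEV and from 21.7 to 38.8 FPKM in ctr_hEV. Of 12 tested immediate early genes, 10 lay below the median gene (7 without ctr_hEV 1 and 3), and the sum of the list of 13 was 169 to 188 FPKM in RIC_hEV and 185 to 273 FPKM in ctr_hEV. Of 8 tested circadian clock genes, 2 lay above and 6 below the median gene (median -0.11), or 3 above and 5 below without ctr_hEV 1 and 3, and the list of 9 summed to 67.1 to 83.2 FPKM in RIC_hEV and 73.3 to 97.5 FPKM in ctr_hEV. At an unadjusted p under 0.05, 1 clock gene was higher and 3 were lower, beside 2.64% and 11.4% of all tested genes. None of the clock genes passed the adjusted threshold.

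Cell-type marker lists, too, lay mostly to 1 side of the median gene. All 8 hepatocyte markers lay above the median gene (sum 32003 to 38009 FPKM in RIC_hEV, 26746 to 40418 FPKM in ctr_hEV). All 8 stellate cell and fibroblast markers lay below it, 6 of 7 macrophage markers did (sum 555 to 838 FPKM in RIC_hEV, 721 to 1367 FPKM in ctr_hEV), and all 4 tested neutrophil markers of 6 did (sum 6.62 to 15.6 FPKM in RIC_hEV, 12.8 to 70.2 FPKM in ctr_hEV). Endothelial markers lay above it in 5 of 6 (sum 63.4 to 89.9 FPKM in RIC_hEV, 67.8 to 80.7 FPKM in ctr_hEV). Without ctr_hEV 1 and 3 the stellate and macrophage directions turned, with 7 of 8 and 5 of 7 above the median gene, while 6 of 8 hepatocyte markers and 0 of 3 tested neutrophil markers lay above it. Striated muscle markers summed to 2.08 to 3.03 FPKM in RIC_hEV and 1.61 to 3.78 FPKM in ctr_hEV. The part of these markers in the chaperone values was not tested. Within the controls, ctr_hEV 1 combined the lowest inducible sum with the lowest hepatocyte sum, the highest stellate and macrophage sums and the most Cirbp, whereas ctr_hEV 4 lay near the RIC_hEV libraries in most of these measures.

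**Figure D5:**
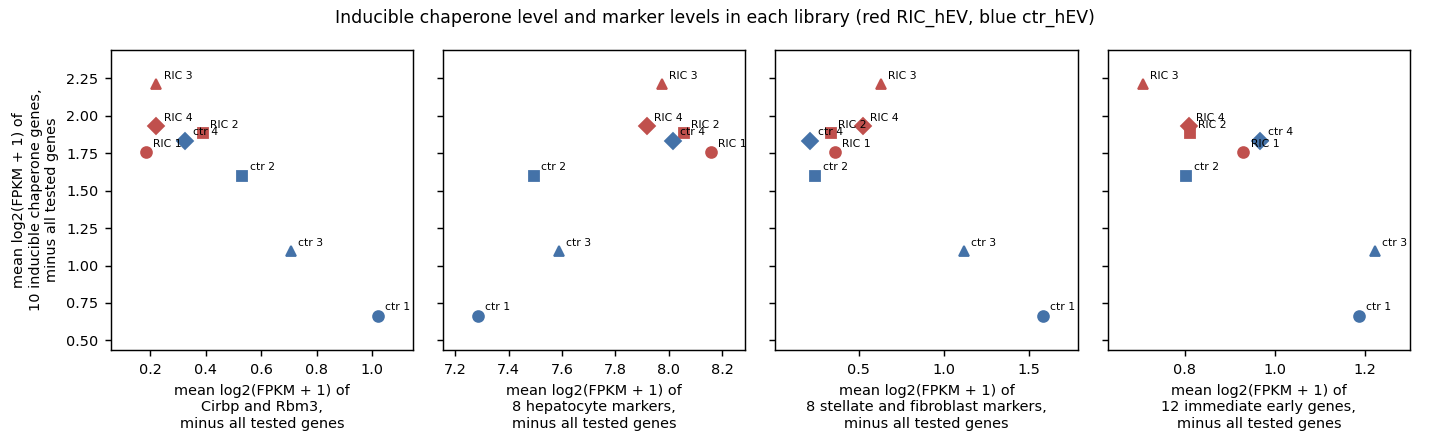
Mean log2(FPKM + 1) of the 10 inducible genes minus that of all tested genes (vertical axis) against the same measure of Cirbp and Rbm3, of hepatocyte markers, of stellate cell and fibroblast markers, and of immediate early genes, with 1 point per library (red RIC_hEV, blue ctr_hEV). ctr_hEV 1 and ctr_hEV 3 lie apart at the low end of the chaperone axis in every panel, and ctr_hEV 4, at 1.83, lies among the RIC_hEV libraries, which run from 1.76 to 2.21.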

How the data were processed

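Bulk RNA sequencing of mouse liver was deposited as 1 table of FPKM for 8 libraries. Per the labels, total RNA was extracted with Trizol and libraries were made with a VAHTS kit. Per the submitters' processing notes, the tools were HISAT2 2.2.1 and HTSeq 0.13.5 with build mm10, next to Trimmomatic 0.38 and FastQC 0.11.9. Not given in the sources used here are the program behind the authors' FPKM, its annotation, gene lengths and strand setting, so overlapping and antisense genes cannot be told apart. Of 55335 rows, 3225 without a gene name (0.176% to 0.207% of FPKM) were left out; of 80 symbols on several rows, the row with the higher mean was kept, and none was a member. Every per-sample column was assigned.

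Values were taken as log2(FPKM + 1) for genes with a mean of at least 1 FPKM. RIC_hEV was compared with ctr_hEV by limma 3.58.1 under R 4.3.3, with empirical Bayes moderation, a mean-variance trend and Benjamini-Hochberg adjustment over all tested genes, two-sided. The procedure was tested on simulated data. Depth was estimated from the smallest FPKM steps with GENCODE M21 exon lengths. Positions are in GRCm38 (mm10). Shared stretches are 31-base runs of a gene's annotated transcripts that another gene also holds.

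Members, classes and lists were chosen with earlier results of these data known. Genes are named by rule. The rule took tested inducible, constitutive and mitochondrial members, and up to 8 members in each direction whose groups did not overlap. It also took Hsf1 and genes without overlap in the list of heat shock factors and cochaperones. Most others are marked in the text as named with values known. Alternatives were other pseudocounts, filters, scalings and models, and leaving out libraries.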

Additional observations from a re-analysis of the deposited data

Results flagged for a closer look

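Among 64 groups of 4 values checked for a library far from the others, 2 were flagged, where chance flags about 1 in 20 groups. Hspa13 in RIC_hEV 3 stood at 3.693 FPKM, above the other RIC_hEV libraries at 2.922 to 3.049 FPKM. Dnajc1 in RIC_hEV 3 stood at 2.191 FPKM, below the other RIC_hEV libraries at 2.275 to 2.29 FPKM. In both genes the gap to the nearest library was large only against a narrow range.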

How the results depend on the processing

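No member passed the adjusted threshold under any of the alternatives, except that 2 passed (Hspb1 and Dnajc10) without ctr_hEV 4 (range 0 to 2 with 1 library left out). Without ctr_hEV 4, 175 of 11316 tested genes passed, against 4 of 11268 in the full set. Members higher at an unadjusted p under 0.05 numbered 7, with median centring 13 and without ctr_hEV 1 and 3 together 3. With 1 library left out they numbered 5 to 10, beside 1.85% to 4.38% of all tested genes. Lower members numbered 7, and with a minimum mean of 5 FPKM 1 (beside 10.1% of all tested genes). With median centring, with quantile normalization and without both controls they numbered 2 each. With 1 library left out they numbered 3 to 7 (beside 4.99% to 24.7%). Members with all RIC_hEV values above ctr_hEV numbered 2 (beside 1.31% of all tested genes), and with median centring 7 (4.24%). With quantile normalization they numbered 4 (beside 2.57%) and without both controls 5 (beside 6.06%). With 1 library left out they numbered 2 to 8 (beside 1.68% to 3.52%). Those with all values below numbered 3, with the higher minimum 0, on the TPM scale 6, with median centring 1, with quantile normalization 1, without both controls 5, and 3 to 10 with 1 library left out. Without ctr_hEV 4, 3.52% of all tested genes had all RIC_hEV values above and 21.7% below. Over all genes, 297 were higher and 1279 lower at an unadjusted p under 0.05, against 924 and 437 with median centring, 605 and 607 with quantile normalization, and 215 and 362 without both controls.

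Class medians kept their sign for inducible, constitutive and mitochondrial members in every alternative run. With the higher minimum they were 0.36 for constitutive members, 0.11 for the other J proteins and 0.070 for endoplasmic reticulum members, the last turned in sign; fewer genes were then tested. The endoplasmic reticulum median was -0.078 with a pseudocount of 0.01 and -0.13 with no filter. The J protein median ran from -0.040 to 0.065 with 1 library left out. The cause of these shifts was not tested.

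The labels do not say whether the replicate numbers pair libraries, and no pairing was seen in the values. Deviations of same-numbered libraries correlated at 0.052, 0.12, -0.0086 and -0.23. Of the libraries, 0 of 4 RIC_hEV and 1 of 4 ctr_hEV correlated best with their own number. With 4 libraries per group, such correlations cannot exclude a pairing. With a replicate block, 6 members were higher and 3 lower at an unadjusted p under 0.05, and none passed. The shares of all tested genes were then 2.37% and 7.55%. FPKM steps give only an estimated depth, so no count-based interval was computed.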
